A study of Mus musculus with 8 samples.

Results

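Interferon-stimulated genes are the genes that cells switch on when type I interferons reach their receptor, and 42 of them were followed here in the corpus callosum of cuprizone-fed mice. They were set as a list of symbols, which was chosen with earlier results of these data known. Of the 42, 40 had a transcript cluster, the array's unit for one gene, that carries exactly 1 gene symbol. Isg15 was skipped because its cluster also carries a second symbol, and Ifi44 was not analysed here. The 40 stand among 23410 gene-named clusters tested.

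The tissue was corpus callosum, the large white matter tract between the hemispheres, dissected by hand from perfused mice. All mice were wild-type C57BL/6 males aged 8 weeks, and no allele or transgene separates the groups. The control group ate normal diet and the cuprizone group ate 0.25% cuprizone for 1 week, with 4 biological replicates and 4 arrays each. Cuprizone chelates copper and is used to injure oligodendrocytes, the cells that form myelin. The question named by the title of the series is what oligodendrocyte degeneration does to brain inflammation. Values are deposited log2 levels, so a difference of 1 is a doubling.

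Medians of the 8 arrays lay between 7.44 and 7.49, arrays of a group correlated at 0.9952 to 0.9971 over clusters, and no array pair was identical. On the first principal component, with 52.2% of the variance, control replicate 2 (-13.2) and cuprizone replicate 2 (8.73) stood nearest the other group. Without both of these arrays, 37 of the 40 genes rose at the threshold given with the counts, against 28 with all arrays, and the median log2 fold change was 1.24.

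Type I interferons are cytokines that bind a shared receptor and, through the kinases Jak1 and Tyk2, activate transcription factors that include Stat2 and Irf9. These bind the interferon-stimulated response element in promoters and switch on genes that detect foreign nucleic acid, block viral growth or tune the signal itself. In the brain, microglia, astrocytes and vessel cells are all able to respond, and many of the same genes also answer to interferon gamma or lambda. The list therefore names a response and not its ligand.

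RefSeq promoter windows (build GRCm38.p6, 250 bases before to 50 after the start) were matched for 32 of the 42 genes. The core of the response element, GAAANNGAAA on either strand, with overlapping matches counted separately, occurred in 15 of these 32 genes (46.9%). Counted in the same way, it occurred in 3.99% of all 27025 genes with a window, and in 3.44% of the 32851 windows. Among the 30 genes with both a window and a measured level, 14 held the core. This is a description without a test, and a missing match says only that these letters are not in the window. The windows below are shown because they span the largest and the smallest changes in the list. Each is written along the gene's own strand, with the core in capitals; TTTC at its left end marks a core that reads on the opposite strand.

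Ifit1, chr19:34640775-34640804, + strand: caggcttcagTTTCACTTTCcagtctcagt
Ifit1, chr19:34640794-34640823, + strand: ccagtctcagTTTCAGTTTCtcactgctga
Ifit3, chr19:34583363-34583392, + strand: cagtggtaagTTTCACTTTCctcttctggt
Ifit3, chr19:34583397-34583426, + strand: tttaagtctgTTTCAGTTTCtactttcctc
Ifit3b, chr19:34607759-34607788, + strand: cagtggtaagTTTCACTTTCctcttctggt
Ifit3b, chr19:34607793-34607822, + strand: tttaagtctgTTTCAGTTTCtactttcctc
Trim30a, chr7:104465210-104465239, - strand: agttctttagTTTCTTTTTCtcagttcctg
Trim30d, chr7:104507871-104507900, - strand: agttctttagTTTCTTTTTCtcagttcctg
Rsad2, chr12:26456553-26456582, - strand: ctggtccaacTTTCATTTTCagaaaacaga
Stat2, chr10:128270266-128270295, + strand: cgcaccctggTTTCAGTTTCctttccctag
Bst2, chr8:71537577-71537606, - strand: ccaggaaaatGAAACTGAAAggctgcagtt
Oas1a, chr5:120907526-120907555, - strand: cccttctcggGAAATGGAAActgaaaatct
Oas3, chr5:120777715-120777744, - strand: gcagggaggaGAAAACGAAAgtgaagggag

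Ifit3 and Ifit3b shared both 30-base windows letter for letter, and Trim30a and Trim30d shared theirs. The core lay before the transcription start in 11 genes and, of all 24 matches, 18 were before the start. Genes near the top and near the bottom of the response both held the interferon core, as the plot of motif positions shows. The median log2 fold change was 1.40 for measured genes with the core and 0.87 for those whose window lacked it. Oasl2 and Lgals3bp, at 2.26 and 2.01, were among those without it. This difference was not tested.

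**Figure D1:**
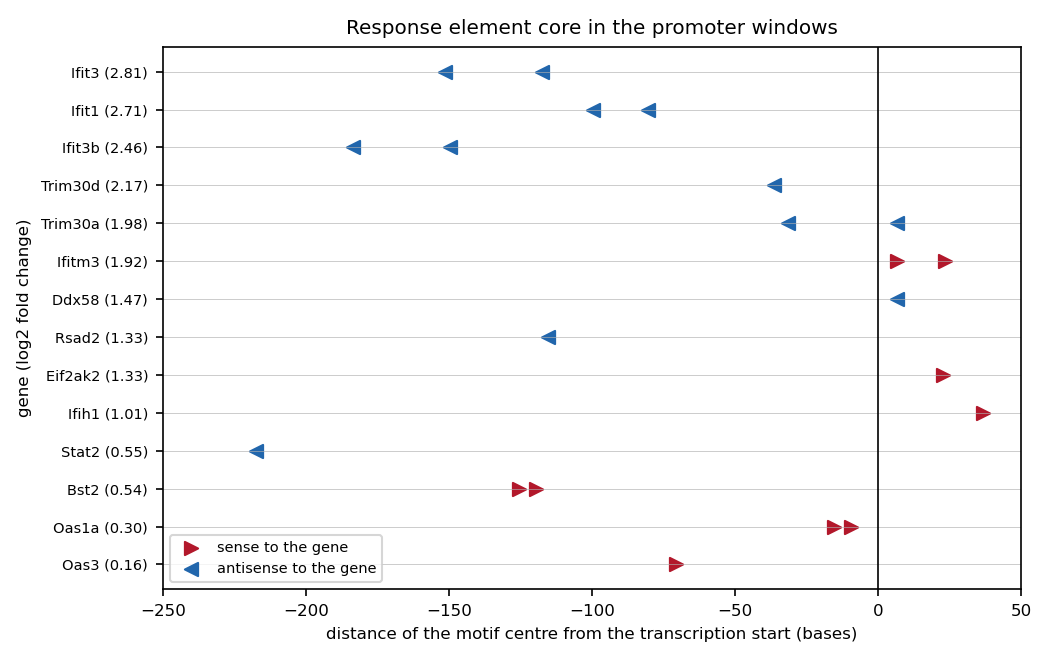
Position of each GAAANNGAAA match relative to the transcription start (horizontal axis, bases), for the 14 measured genes that hold one, ordered by log2 fold change (in brackets). Triangles point along the strand that carries the core. Ifit3 at 2.81 and Oas3 at 0.16 both hold it before their start.

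All 40 measured genes had a higher mean with cuprizone, and 28 of them rose at a limma adjusted p under 0.05, the threshold used throughout, while none fell. Over all clusters tested, 4.71% were called higher and 3.52% lower by the same rule. Because the list was chosen with earlier results of these data known, this contrast is a description. The median log2 fold change of the 40 was 0.94, against -0.01 over all clusters, and the values ran from 0.16 for Oas3 to 2.81 for Ifit3. Of the 40, 19 were at least 2-fold higher, as were 0.496% of all clusters, and 7 at least 4-fold. Those both called higher and at least 1.5-fold up numbered 26, where 1.4% of all clusters were. Every cuprizone array lay above every control array for 32 of them, where 8.24% of all clusters did so, and below every control array for none, where 7.09% of all clusters were. In bulk tissue, more responding cells and more RNA per cell cannot be told apart.

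The count of called genes depended on the arrays and on how the variance was estimated. Without cuprizone replicate 2 it was 39 of 40, with Oas3 the exception. Without any 1 of the other arrays it was 19 to 29, and with an intensity trend and robust prior it was 15. An ordinary F test, which takes no variance information from other genes, called only Ifitm3 and Lgals3bp. Another 10 of the 28 lost their call in that F test and in no other alternative, namely Ifit1, Ifit3, Ifit3b, Irf9, Zbp1, Isg20, Parp9, Parp12, Trim30a and Trim30d.

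**Figure D2:**
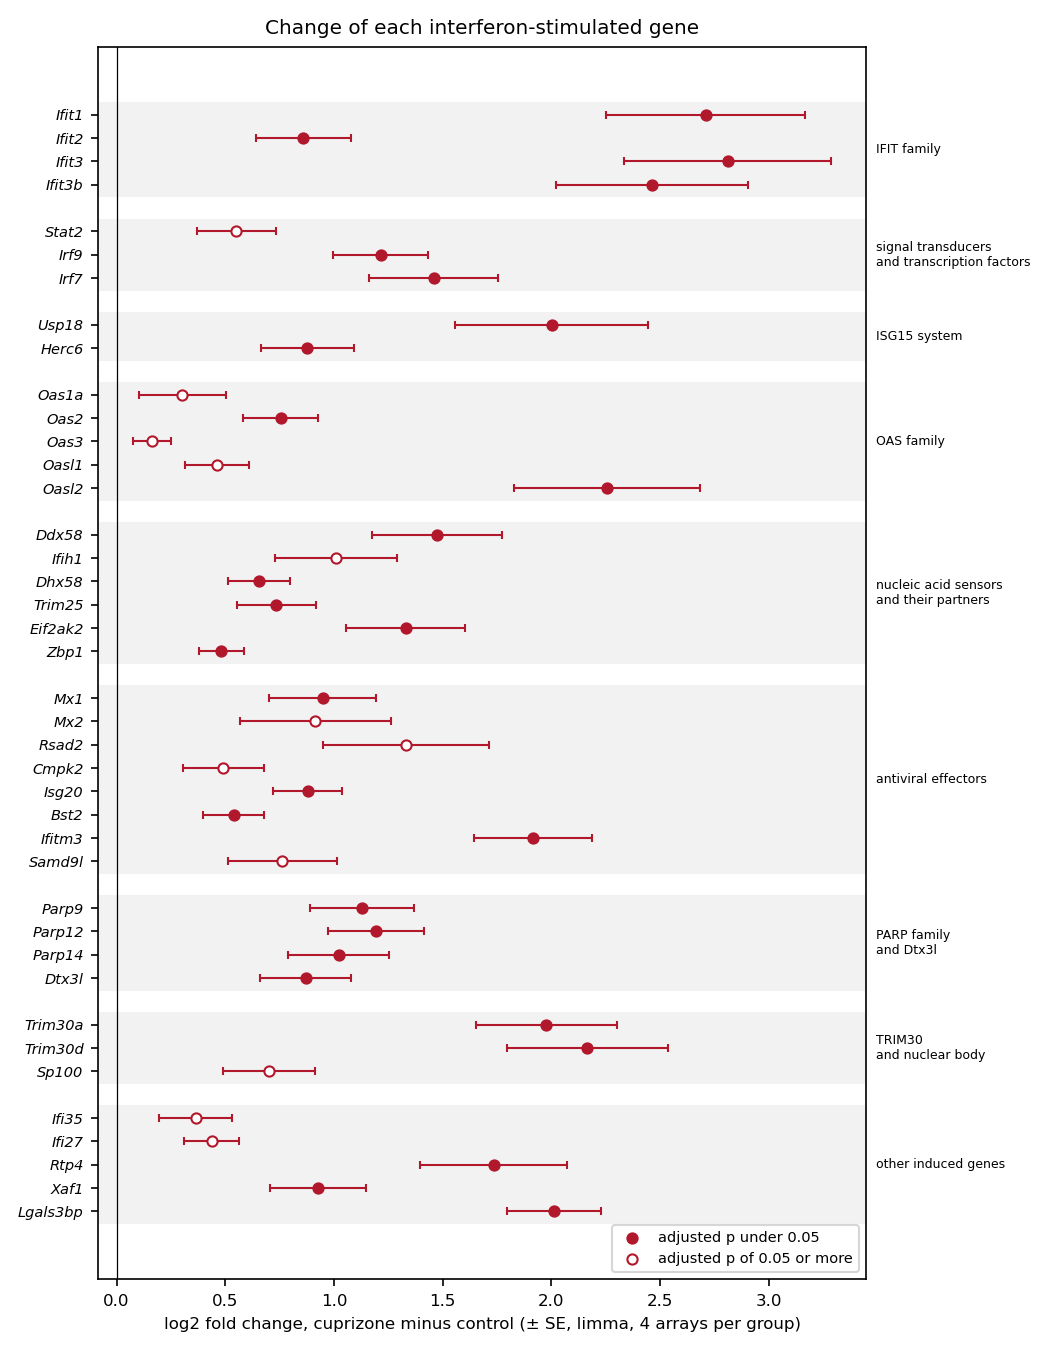
Log2 fold change of each of the 40 genes, cuprizone minus control, with its SE from limma (4 arrays per group), grouped by role. Filled points are the 28 genes past the threshold, open points the 12 that were not, and all 40 lie to the right of 0.

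The signal-transducing members are the factors through which the response is relayed and amplified. Irf9 (transcript cluster 10415319), which binds DNA in a complex with Stat2, stood at log2 levels of 7.90, 8.04, 7.85 and 7.80 on control replicates 1 to 4 and 9.56, 8.39, 9.56 and 8.94 on cuprizone replicates 1 to 4. All cuprizone values of Irf9 were above the controls, with replicate 1 at the top and replicate 2 at the bottom. Irf9 rose by 1.21 ± 0.22 on the log2 scale, at an adjusted p of 0.00534 in limma. Irf7 (transcript cluster 10569102), which amplifies the production of interferon alpha, stood at log2 levels of 6.27, 6.62, 6.55 and 6.56 on control replicates 1 to 4 and 8.53, 7.01, 8.65 and 7.65 on cuprizone replicates 1 to 4. Even cuprizone replicate 2, the lowest for Irf7, exceeded the highest control, and replicate 3 was the highest. This was a rise of 1.46 ± 0.30, with a limma adjusted p of 0.0111. Stat2 (transcript cluster 10367224), the partner of Irf9, stood at log2 levels of 8.22, 8.19, 8.17 and 8.21 on control replicates 1 to 4 and 9.25, 8.21, 9.03 and 8.52 on cuprizone replicates 1 to 4. Stat2 overlapped between the groups, since cuprizone replicate 2 did not exceed the highest control. The means were 0.55 ± 0.18 apart (limma adjusted p = 0.100). Stat2 did not pass the threshold, and it passed without cuprizone replicate 2 (0.00782 to 0.245 over the arrays left out).

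The IFIT family encodes proteins that bind foreign RNA and stop its translation. All 4 members rose, and 3 of them were among the largest changes in the list. Ifit1 (transcript cluster 10462623), which recognises incompletely capped RNA, stood at log2 levels of 6.26, 6.48, 6.40 and 6.42 on control replicates 1 to 4 and 10.08, 7.47, 9.98 and 8.85 on cuprizone replicates 1 to 4. The controls lay below every cuprizone value of Ifit1, which was highest on replicate 1 and lowest on replicate 2. The rise was 2.71 ± 0.46 (log2 fold change ± SE, limma adjusted p = 0.00370). Ifit3 (transcript cluster 10462618), its partner protein, stood at log2 levels of 7.13, 7.65, 7.26 and 7.00 on control replicates 1 to 4 and 11.06, 8.39, 10.97 and 9.88 on cuprizone replicates 1 to 4. The lowest cuprizone value of Ifit3, that of replicate 2, was above all controls, and the highest was that of replicate 1. Ifit3 rose by 2.81 ± 0.48 on the log2 scale, at an adjusted p of 0.00374 in limma. Ifit3b, a near-copy of Ifit3 in the mouse, rose by 2.46 ± 0.44, and probes may not separate the copies. Ifit2 rose less, by 0.86 ± 0.22. Its call was lost when control replicate 1, 3 or 4 or cuprizone replicate 1 or 3 was left out, with adjusted p between 0.00568 and 0.0948 over the 8 arrays left out.

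Isg15 is a small ubiquitin-like protein that is attached to other proteins, and 2 of the 3 listed members of its system were measured. Usp18 (transcript cluster 10541307), the protease that removes Isg15 and also damps the interferon receptor, stood at log2 levels of 6.20, 6.31, 6.23 and 6.09 on control replicates 1 to 4 and 9.02, 6.70, 9.27 and 7.85 on cuprizone replicates 1 to 4. Usp18 was highest on cuprizone replicate 3, and the groups did not overlap, although replicate 2 lay nearest the controls. This was a rise of 2.00 ± 0.44, with a limma adjusted p of 0.0171. Herc6 (transcript cluster 10538590), the main ligase for Isg15 in mice, stood at log2 levels of 7.33, 7.72, 7.66 and 7.40 on control replicates 1 to 4 and 8.90, 7.73, 8.74 and 8.24 on cuprizone replicates 1 to 4. All cuprizone values of Herc6 were above the controls, with replicate 1 at the top and replicate 2 at the bottom. Its mean rose by 0.88 ± 0.21, or 1.84-fold, with adjusted p = 0.0282 in limma. Usp18 lost its call without control replicate 4 (adjusted p from 0.000214 to 0.0506 over the arrays left out), and Herc6 without control replicate 1, 3 or 4 or cuprizone replicate 1 or 3 (0.00110 to 0.0891).

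The OAS family answered unevenly. Its catalytic members make oligoadenylates that activate an RNA-degrading enzyme. Of 5 measured members 2 rose, and the median log2 fold change of the family was 0.46. Oasl2 (transcript cluster 10524621), an OAS-like protein, stood at log2 levels of 7.28, 7.31, 6.93 and 7.03 on control replicates 1 to 4 and 10.32, 7.85, 10.14 and 9.25 on cuprizone replicates 1 to 4. Even cuprizone replicate 2, the lowest for Oasl2, exceeded the highest control, and replicate 1 was the highest. The rise was 2.26 ± 0.43 (log2 fold change ± SE, limma adjusted p = 0.00733). Oas2 (transcript cluster 10533198), a catalytic member, stood at log2 levels of 6.29, 6.28, 5.90 and 6.17 on control replicates 1 to 4 and 7.15, 6.53, 7.36 and 6.61 on cuprizone replicates 1 to 4. The controls lay below every cuprizone value of Oas2, which was highest on replicate 3 and lowest on replicate 2. Oas2 rose by 0.76 ± 0.17 on the log2 scale, at an adjusted p of 0.0205 in limma. Oas2 lost its call without control replicate 3 or 4 or cuprizone replicate 1, with adjusted p from 0.00637 to 0.0622 over the arrays left out.

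The other 3 OAS members did not pass. Oasl1 (transcript cluster 10524631), which limits translation of Irf7, stood at log2 levels of 7.22, 7.14, 7.27 and 7.33 on control replicates 1 to 4 and 8.06, 7.42, 7.99 and 7.36 on cuprizone replicates 1 to 4. The lowest cuprizone value of Oasl1, that of replicate 4, was above all controls, and the highest was that of replicate 1. Oasl1 means differed by 0.46 ± 0.15 on the log2 scale, with a limma adjusted p of 0.0864. Oas1a (transcript cluster 10533256) stood at log2 levels of 7.07, 6.64, 6.75 and 6.63 on control replicates 1 to 4 and 7.47, 6.38, 7.26 and 7.19 on cuprizone replicates 1 to 4. Oas1a overlapped between the groups, since cuprizone replicate 2 did not exceed the highest control, and replicate 2 was also below every control. Cuprizone minus control gave 0.30 ± 0.20 (adjusted p = 0.457 in limma). Oas3 (transcript cluster 10533213) stood at log2 levels of 6.19, 6.40, 6.32 and 6.46 on control replicates 1 to 4 and 6.61, 6.34, 6.67 and 6.40 on cuprizone replicates 1 to 4. Oas3 overlapped between the groups, since cuprizone replicates 2 and 4 did not exceed the highest control. The means were 0.16 ± 0.09 apart (limma adjusted p = 0.333). Without cuprizone replicate 2, Oasl1 and Oas1a passed and Oas3 did not, and Oasl1 also passed without cuprizone replicate 4. Adjusted p over the arrays left out ran from 0.0327 to 0.217 for Oasl1, 0.0146 to 0.712 for Oas1a and 0.182 to 0.598 for Oas3. A further cluster shared by Oas1a and its near-copy Oas1g was not used, and cross-hybridisation within this family was not tested.

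Members that sense nucleic acid, and their partners, rose in 5 of 6 cases. Ddx58 (transcript cluster 10512067), which encodes the RNA sensor RIG-I, stood at log2 levels of 7.46, 7.47, 7.40 and 7.43 on control replicates 1 to 4 and 9.58, 7.91, 9.50 and 8.66 on cuprizone replicates 1 to 4. Ddx58 was highest on cuprizone replicate 1, and the groups did not overlap, although replicate 2 lay nearest the controls. Ddx58 rose by 1.47 ± 0.30 on the log2 scale, at an adjusted p of 0.0104 in limma. Eif2ak2 (transcript cluster 10452980), the kinase PKR that shuts down translation, stood at log2 levels of 6.51, 6.42, 6.51 and 6.49 on control replicates 1 to 4 and 8.41, 6.82, 8.29 and 7.71 on cuprizone replicates 1 to 4. All cuprizone values of Eif2ak2 were above the controls, with replicate 1 at the top and replicate 2 at the bottom. This was a rise of 1.33 ± 0.27, with a limma adjusted p of 0.0118. Zbp1, a sensor of left-handed nucleic acid that can start cell death, rose by 0.48 ± 0.10. Dhx58, the regulatory RIG-I-like helicase LGP2, rose by 0.65 ± 0.14. Trim25, a ubiquitin ligase that acts with RIG-I, rose by 0.73 ± 0.18.

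Ifih1 (transcript cluster 10483110), which encodes the RNA sensor MDA5, stood at log2 levels of 6.56, 6.50, 6.59 and 6.61 on control replicates 1 to 4 and 8.29, 6.67, 8.05 and 7.28 on cuprizone replicates 1 to 4. Even cuprizone replicate 2, the lowest for Ifih1, exceeded the highest control, and replicate 1 was the highest. The means were 1.01 ± 0.28 apart (limma adjusted p = 0.0509). Ifih1 missed the threshold, and it passed without cuprizone replicate 2 (adjusted p from 0.00150 to 0.143 over the arrays left out). Dhx58 lost its call without cuprizone replicate 3 (0.00416 to 0.0516). Trim25 lost it without any 1 array other than cuprizone replicate 2 (0.000254 to 0.0842).

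Effectors that act on viral entry, replication or release gave 4 calls among 8 members. Ifitm3 (transcript cluster 10569017), a membrane protein that blocks viral entry from endosomes, stood at log2 levels of 8.54, 8.88, 8.60 and 8.43 on control replicates 1 to 4 and 10.99, 9.57, 11.09 and 10.46 on cuprizone replicates 1 to 4. The controls lay below every cuprizone value of Ifitm3, which was highest on replicate 3 and lowest on replicate 2. The rise was 1.92 ± 0.27 (log2 fold change ± SE, limma adjusted p = 0.00120). Isg20 (transcript cluster 10554240), an exonuclease, stood at log2 levels of 6.89, 7.50, 6.87 and 7.22 on control replicates 1 to 4 and 8.28, 7.64, 8.15 and 7.93 on cuprizone replicates 1 to 4. The lowest cuprizone value of Isg20, that of replicate 2, was above all controls, and the highest was that of replicate 1. Isg20 rose by 0.88 ± 0.16 on the log2 scale, at an adjusted p of 0.00558 in limma. Isg20 was the single member whose spread was larger among controls than among cuprizone arrays. Bst2, which tethers budding virus to the cell surface, rose by 0.54 ± 0.14, and Mx1, a dynamin-like GTPase that carries a known defect in C57BL/6 mice, by 0.95 ± 0.24. Mx1 lost its call without any 1 control array or cuprizone replicate 1 or 3 (adjusted p from 0.00675 to 0.111 over the arrays left out), and Bst2 without control replicate 1, 2 or 3 or cuprizone replicate 1 or 3 (0.0180 to 0.103).

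The remaining 4 effectors did not pass. Rsad2 (transcript cluster 10399710), the radical enzyme viperin, stood at log2 levels of 6.07, 5.94, 5.78 and 6.26 on control replicates 1 to 4 and 8.33, 6.29, 8.05 and 6.71 on cuprizone replicates 1 to 4. Rsad2 was highest on cuprizone replicate 1, and the groups did not overlap, although replicate 2 lay nearest the controls. The means were 1.33 ± 0.38 apart (limma adjusted p = 0.0578). Cmpk2 (transcript cluster 10395039), a nucleotide kinase whose gene lies beside Rsad2, stood at log2 levels of 7.90, 7.82, 7.97 and 7.63 on control replicates 1 to 4 and 8.76, 7.76, 8.62 and 8.14 on cuprizone replicates 1 to 4. Cmpk2 overlapped between the groups, since cuprizone replicate 2 did not exceed the highest control. Cmpk2 means differed by 0.49 ± 0.19 on the log2 scale, with a limma adjusted p of 0.148. Mx2 (transcript cluster 10437224), the second Mx GTPase, stood at log2 levels of 5.47, 5.55, 5.37 and 4.93 on control replicates 1 to 4 and 7.08, 5.18, 6.86 and 5.87 on cuprizone replicates 1 to 4. Mx2 overlapped between the groups, since cuprizone replicate 2 did not exceed the highest control. Cuprizone minus control gave 0.91 ± 0.35 (adjusted p = 0.153 in limma). Samd9l (transcript cluster 10542911), which restrains viral translation, stood at log2 levels of 5.49, 5.67, 5.54 and 5.71 on control replicates 1 to 4 and 6.92, 5.57, 6.89 and 6.08 on cuprizone replicates 1 to 4. Samd9l overlapped between the groups, since cuprizone replicate 2 did not exceed the highest control. The means were 0.76 ± 0.25 apart (limma adjusted p = 0.0984). Each of the 4 passed without cuprizone replicate 2, and Rsad2 also without cuprizone replicate 4. Adjusted p over the arrays left out ran from 0.00685 to 0.157 for Rsad2, 0.0113 to 0.333 for Cmpk2, 0.0106 to 0.346 for Mx2 and 0.00469 to 0.241 for Samd9l.

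The PARP group encodes enzymes that attach ADP-ribose to proteins, and includes Dtx3l, a ubiquitin ligase that works as a complex with Parp9. All 4 rose, with rises of 0.87 to 1.19. Parp12 (transcript cluster 10544133) stood at log2 levels of 7.92, 8.15, 7.69 and 8.02 on control replicates 1 to 4 and 9.51, 8.42, 9.60 and 9.02 on cuprizone replicates 1 to 4. All cuprizone values of Parp12 were above the controls, with replicate 3 at the top and replicate 2 at the bottom. This was a rise of 1.19 ± 0.22, with a limma adjusted p of 0.00612. Parp9 (transcript cluster 10435457) stood at log2 levels of 6.10, 6.23, 6.14 and 6.07 on control replicates 1 to 4 and 7.82, 6.56, 7.76 and 6.92 on cuprizone replicates 1 to 4. Even cuprizone replicate 2, the lowest for Parp9, exceeded the highest control, and replicate 1 was the highest. Its mean rose by 1.13 ± 0.24, or 2.19-fold, with adjusted p = 0.0134 in limma. Parp14 rose by 1.02 ± 0.23 and Dtx3l by 0.87 ± 0.21. Parp9, Parp14 and Dtx3l are neighbours on chromosome 16. Parp14 lost its call without control replicate 1 or 4 or cuprizone replicate 3 (adjusted p from 0.000428 to 0.0661 over the arrays left out), and Dtx3l without any 1 control array or cuprizone replicate 3 (0.00136 to 0.0823).

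Trim30a and Trim30d are neighbouring, closely related genes, and Trim30a is known to damp NF-kB signalling. Trim30a (transcript cluster 10566358) stood at log2 levels of 6.95, 7.06, 6.77 and 7.00 on control replicates 1 to 4 and 9.54, 7.78, 9.60 and 8.78 on cuprizone replicates 1 to 4. The controls lay below every cuprizone value of Trim30a, which was highest on replicate 3 and lowest on replicate 2. The rise was 1.98 ± 0.32 (log2 fold change ± SE, limma adjusted p = 0.00304). Trim30d (transcript cluster 10566366) stood at log2 levels of 5.56, 5.65, 5.62 and 5.45 on control replicates 1 to 4 and 8.50, 6.39, 8.43 and 7.62 on cuprizone replicates 1 to 4. The lowest cuprizone value of Trim30d, that of replicate 2, was above all controls, and the highest was that of replicate 1. Trim30d rose by 2.17 ± 0.37 on the log2 scale, at an adjusted p of 0.00391 in limma. Because the genes are alike their clusters may share signal. Sp100 (transcript cluster 10347948), a scaffold of nuclear bodies, stood at log2 levels of 6.36, 6.32, 6.16 and 6.35 on control replicates 1 to 4 and 7.46, 6.33, 7.43 and 6.79 on cuprizone replicates 1 to 4. Sp100 overlapped between the groups, since cuprizone replicate 2 did not exceed the highest control. Cuprizone minus control gave 0.70 ± 0.21 (adjusted p = 0.0698 in limma). Sp100 missed the threshold, and it passed without cuprizone replicate 2 (0.00256 to 0.182).

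Among the other induced genes 3 of 5 rose. Lgals3bp (transcript cluster 10393573), a secreted glycoprotein that binds galectins, stood at log2 levels of 8.32, 8.68, 8.22 and 8.50 on control replicates 1 to 4 and 10.78, 9.74, 10.92 and 10.32 on cuprizone replicates 1 to 4. Lgals3bp was highest on cuprizone replicate 3, and the groups did not overlap, although replicate 2 lay nearest the controls. Its mean rose by 2.01 ± 0.22, or 4.03-fold, with adjusted p = 0.000203 in limma. Rtp4 (transcript cluster 10434778), a chaperone of membrane receptors, stood at log2 levels of 7.12, 6.98, 6.74 and 6.74 on control replicates 1 to 4 and 9.34, 7.47, 9.28 and 8.44 on cuprizone replicates 1 to 4. All cuprizone values of Rtp4 were above the controls, with replicate 1 at the top and replicate 2 at the bottom. The rise was 1.74 ± 0.34 (log2 fold change ± SE, limma adjusted p = 0.00850). Lgals3bp had the smallest adjusted p of all 40 genes. Xaf1, which counters an inhibitor of caspases, rose by 0.93 ± 0.22, and lost its call without any 1 control array or cuprizone replicate 1 or 3 (0.000421 to 0.0696 over the arrays left out). Ifi27 (transcript cluster 10397975) stood at log2 levels of 7.75, 7.80, 7.74 and 7.78 on control replicates 1 to 4 and 8.20, 7.80, 8.58 and 8.24 on cuprizone replicates 1 to 4. Ifi27 was lowest on cuprizone replicate 2, which exceeded the highest control only beyond the second decimal. Cuprizone minus control gave 0.44 ± 0.13 (adjusted p = 0.0622 in limma). Ifi35 (transcript cluster 10381408) stood at log2 levels of 6.76, 6.90, 7.08 and 7.10 on control replicates 1 to 4 and 7.57, 6.84, 7.71 and 7.17 on cuprizone replicates 1 to 4. Ifi35 overlapped between the groups, since cuprizone replicate 2 did not exceed the highest control. The means were 0.36 ± 0.17 apart (limma adjusted p = 0.246). Both passed without cuprizone replicate 2, with adjusted p over the arrays left out from 0.00256 to 0.130 for Ifi27 and 0.0315 to 0.495 for Ifi35.

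The cuprizone arrays differed among themselves more than the controls did. The SD over 4 arrays was larger in the cuprizone group for 39 of the 40 genes (97.5%), where it was larger for 56.4% of all clusters and for 64.8% of the clusters called higher. The median SD of the 40 genes was 0.13 log2 units among controls and 0.57 among cuprizone arrays. For the clusters called higher the same medians were 0.10 and 0.12. The ratio of the SDs was at least 4 for 26 of the 40 genes and for 7.62% of the clusters called higher. It reached 24.8 for Ddx58, and was 0.92 for Isg20. The median SE of the fold change was 0.22 for the 40 genes and 0.08 for the clusters called higher.

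**Figure D3:**
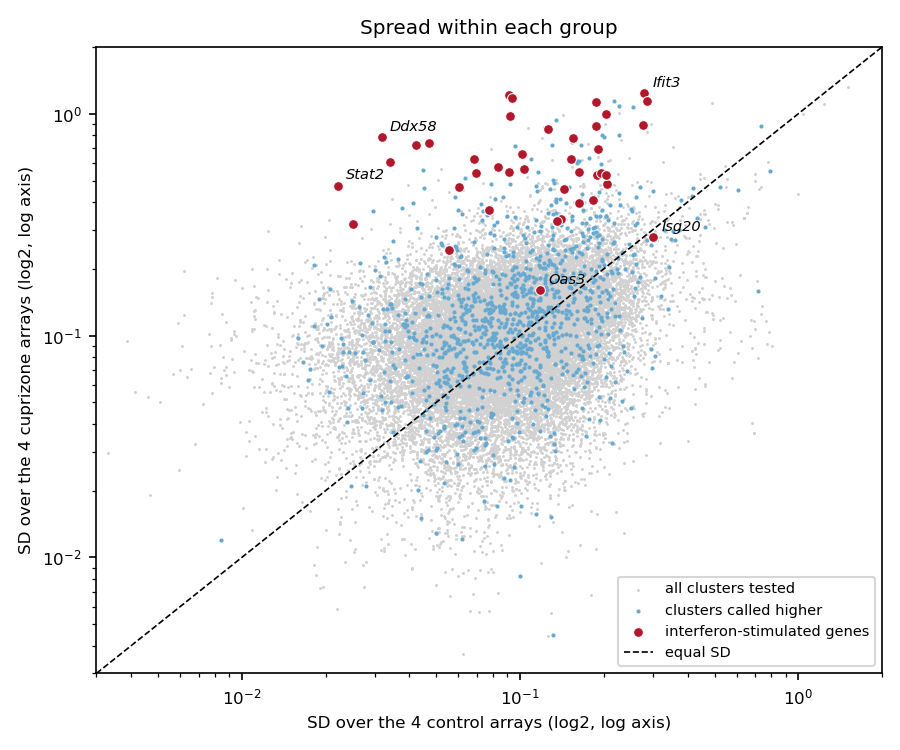
SD over the 4 cuprizone arrays (vertical, log axis) against SD over the 4 control arrays (horizontal, log axis) for each cluster, with the 40 genes in red and the clusters called higher in blue; 1 cluster lies outside the axes. Of the 40 genes 39 lie above the dashed line of equal SD, and Isg20 lies below it.

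The spread had a common order. Cuprizone replicate 2 was the lowest of the 4 cuprizone arrays for 38 of the 40 genes (95.0%), for 21.8% of all clusters and for 53.4% of the clusters called higher. Replicate 4 was the lowest for Oasl1 and Bst2. The highest array was replicate 1 for 24 genes, where this held for 17.2% of the clusters called higher. It was replicate 3 for the other 16, where this held for 53.9% of the clusters called higher. In 37 genes replicates 1 and 3 took the top places, followed by 4 and then 2, an order that 23.4% of the clusters called higher had. Genes measured in the same 4 mice share their tissue pieces, so these counts describe 4 arrays and not 40 independent cases. Replicate 2 was above all 4 controls for 32 genes, the same ones in which every cuprizone array was. Over all clusters, 8.24% had every cuprizone array above every control array.

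**Figure D4:**
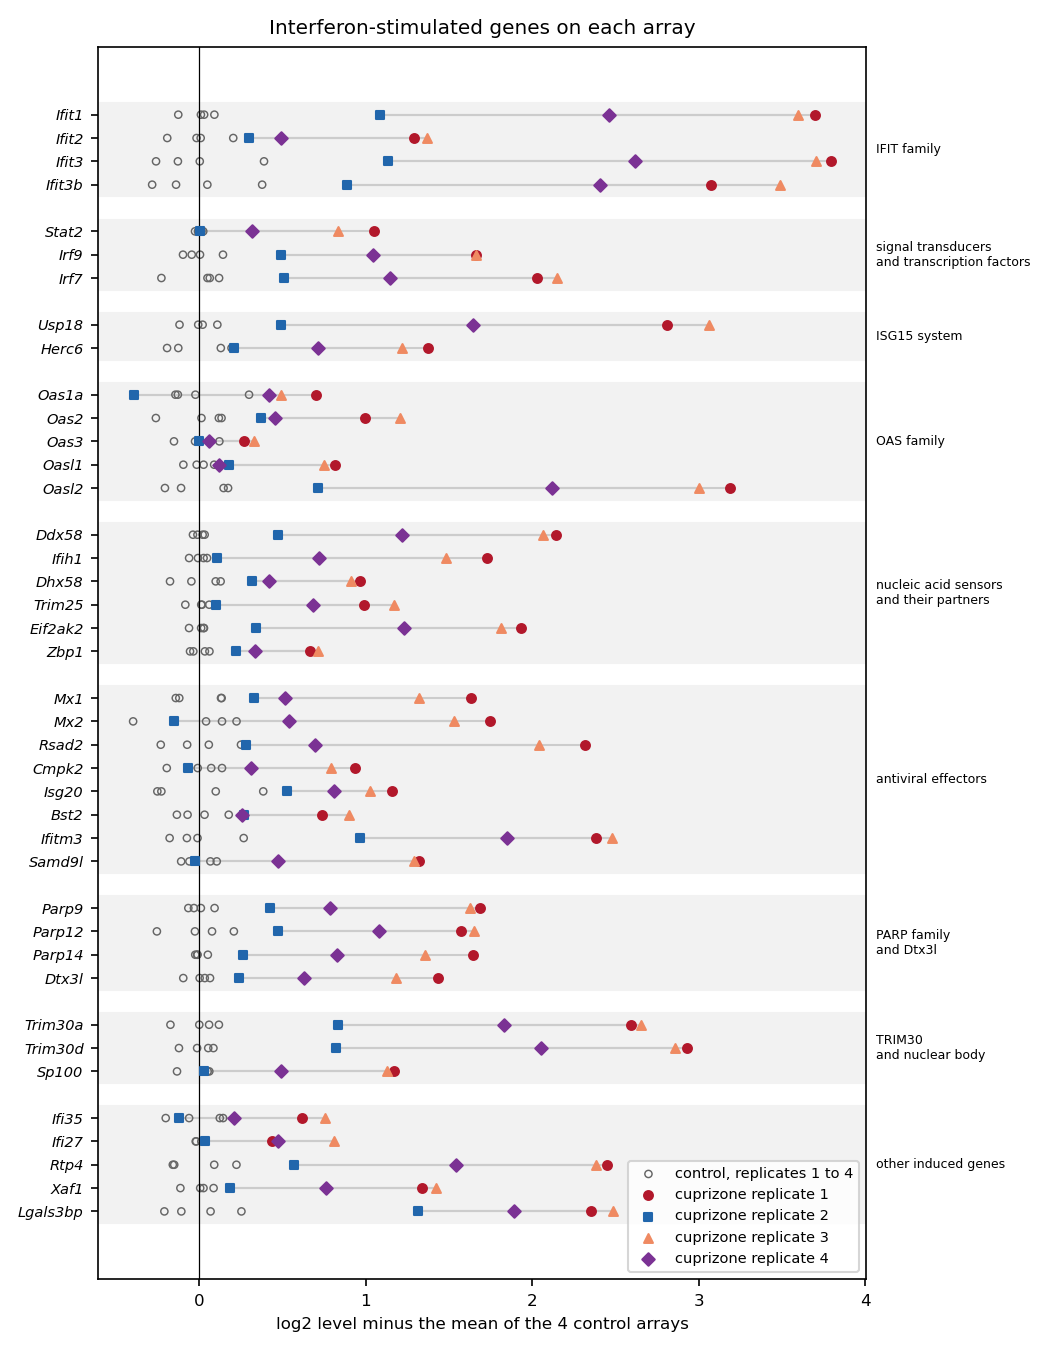
Log2 level of each gene on each array minus the mean of the 4 controls, by role. Open circles are controls, and the 4 filled symbols are the cuprizone replicates. Replicate 2 (blue squares) lies leftmost of the filled symbols for 38 of the 40 genes.

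Averaged over the 40 genes, cuprizone replicates 1 to 4 exceeded the mean control level by 1.69, 0.37, 1.67 and 0.97 log2 units. The controls lay between -0.06 and 0.08. Replicate 2 thus reached 25.5% of the mean of the other 3 cuprizone arrays on the log2 scale. The IFIT family showed 2.96, 0.85, 3.04 and 1.99 on the same arrays, and the PARP group 1.58, 0.35, 1.45 and 0.83. The smallest role-group value on replicate 2 was that of the OAS family, 0.17, against 1.19 on replicate 1.

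Markers of other cells were read on the same arrays. Over 13 measured markers of mature oligodendrocytes, all of which fell (Mog by 3.78 ± 0.18 and Fa2h by 2.60 ± 0.12), the arrays stood at -2.83, -1.97, -2.19 and -2.39, so that replicate 2 reached 79.7% of the others. Over 11 markers of resident microglia, 7 of which rose (Ptprc by 0.99 ± 0.08), they stood at 0.25, 0.40, 0.58 and 0.46, and replicate 2 reached 93.9%. P2ry12 (-0.06 ± 0.09), Siglech (0.05 ± 0.06), Cx3cr1 (0.27 ± 0.08) and Gpr34 (0.31 ± 0.11) were not called. The microglial count was 4 without control replicate 1, without control replicate 4 and without cuprizone replicate 4, where Tmem119, Aif1 and Fcrls lost their calls, and 5 to 8 without any 1 of the other arrays. The mean log2 level of the microglial list ran from 7.61 to 7.75 on controls and from 7.94 to 8.27 on cuprizone arrays, and that of the oligodendrocyte list from 10.87 to 11.12 and from 8.20 to 9.06. Replicates 1 and 3 had nearly equal interferon means, 1.69 and 1.67. In these microglial markers replicate 1 was the lowest of the 4 and replicate 3 the highest. Whether these shares differ from that of the interferon-stimulated genes was not tested.

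The choroid plexus and ependyma markers, from tissue next to the callosum, stood on the cuprizone arrays at -0.53, 0.23, -0.38 and 0.11. Their mean level ran from 7.04 to 8.09 on controls and from 7.03 to 7.79 on cuprizone arrays. They varied as widely among controls, from -0.52 to 0.53, where the 40 genes varied from -0.06 to 0.08. Of its 12 members 1 fell, Rarres2 at -0.34 ± 0.07, and none rose. Rarres2 lost its call in the ordinary F test and without both replicates 2. The part of these cells in the cuprizone spread was not tested. Ribosomal protein genes, a sign of RNA quality, stood at 0.17, 0.12, 0.29 and 0.17, and 1 of 12 rose, Rps18 at 0.38 ± 0.06. Markers of T and NK cells, neutrophils and blood monocytes gave 0 calls among 10, 8 and 5 measured genes. The mean levels of these lists lay between 5.01 and 5.59 on all arrays, below the array medians of 7.44 to 7.49. No detection call was used, so whether such cells were absent was not tested. Plasmacytoid dendritic cell markers gave 1 call of 6, which was Bst2 itself. Siglech of that list is also on the microglial list, and Tcf4 and Pacsin1 had control means of 10.97 and 10.36. The list therefore does not single out these cells here. B cell markers gave 1 call of 5, the adaptor Blnk at 0.36 ± 0.09. Blnk lost its call without control replicate 1 or 4 or cuprizone replicate 1, 3 or 4 and in the ordinary F test, with adjusted p from 0.0168 to 0.107 over the alternatives. Astrocyte markers gave 4 calls higher and 2 lower among 9, with Gfap at 0.96 ± 0.06, Slc1a2 at -0.60 ± 0.07 and Sox9 at 0.43 ± 0.07. The lower count was 1 without control replicate 1 or 4 or cuprizone replicate 1 or 4, where the gap junction gene Gja1 lost its call, and the higher count was 3 or 4 over the arrays left out, with Slc1a3 lost without 6 of the 8. Endothelial, meningeal fibroblast and neuron markers gave 0 among 8 in each list. Of these, the meningeal gene Igf2 was called lower without cuprizone replicate 2. The endothelial gene Kdr was called lower with the dim-cluster filter at the 25th percentile. The neuron gene Slc17a7 was called lower in the ordinary F test and among clusters above the median cluster.

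**Figure D5:**
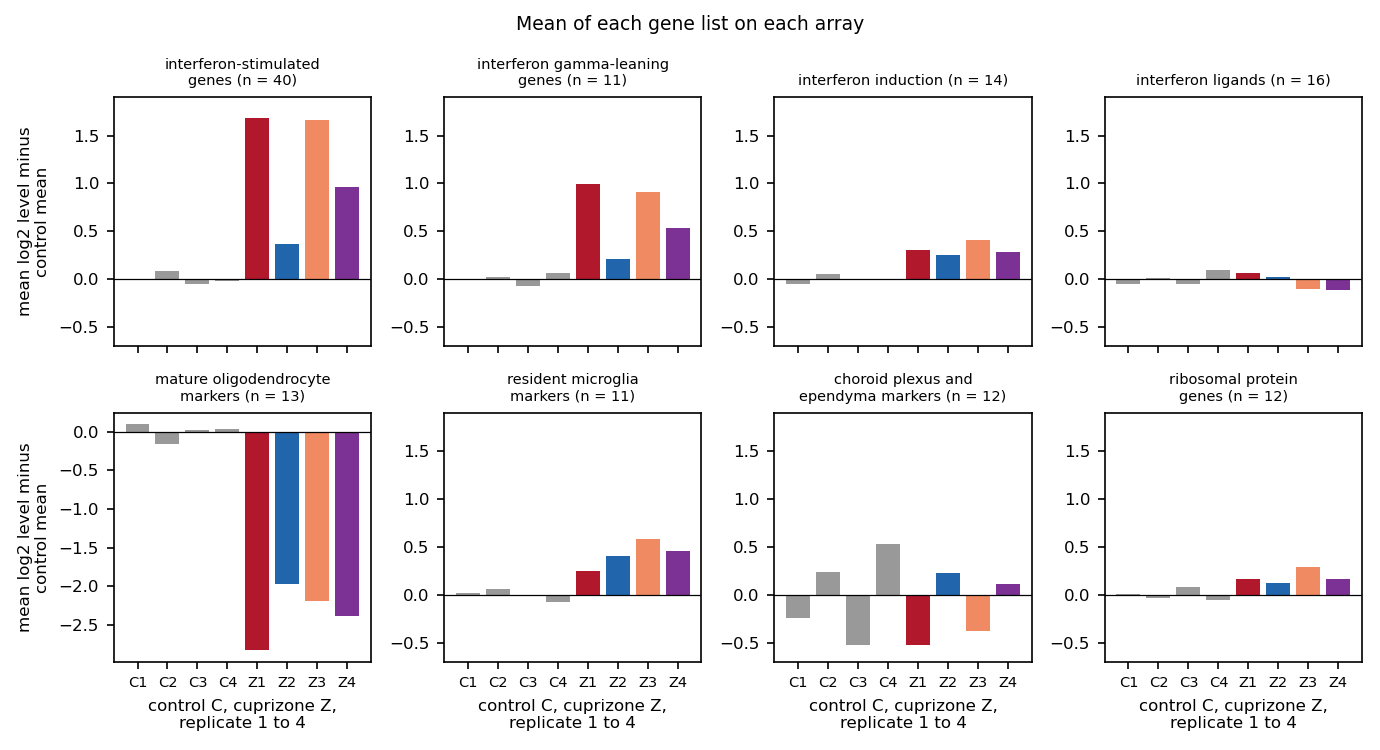
Mean of each gene list on each array, as log2 level minus the control mean, for controls C1 to C4 and cuprizone replicates Z1 to Z4 (the oligodendrocyte panel has its own axis). The interferon-stimulated genes stand at 1.69, 0.37, 1.67 and 0.97 on the cuprizone arrays, and the ligands stay between -0.12 and 0.10 on all 8.

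Upstream of the response, no interferon gene was called with all arrays in the fit. Of 21 listed ligand genes 16 were measured, and 0 rose or fell, with a median log2 fold change of -0.03. At an unadjusted p under 0.05 there was 1, Ifna16, at -0.24 ± 0.08 on the log2 scale (limma adjusted p = 0.0963), and it passed without cuprizone replicate 2, with adjusted p from 0.00755 to 0.216 over the alternatives. Ifna13, at 0.24 ± 0.13 (limma adjusted p = 0.357), was called higher without control replicate 4, with adjusted p from 0.0464 to 0.646 over the alternatives. Ifnb1 (transcript cluster 10514285), the interferon beta gene, named here for its role, stood at log2 levels of 5.09, 5.19, 5.20 and 5.30 on control replicates 1 to 4 and 5.26, 5.13, 5.02 and 5.17 on cuprizone replicates 1 to 4. Ifnb1 overlapped between the groups, since cuprizone replicates 1, 2, 3 and 4 did not exceed the highest control, with replicate 3 below every control. Ifnb1 means differed by -0.05 ± 0.07 on the log2 scale, with a limma adjusted p of 0.760. Ifng (transcript cluster 10366586), interferon gamma, stood at log2 levels of 6.35, 6.18, 6.01 and 6.37 on control replicates 1 to 4 and 6.44, 6.30, 5.99 and 6.11 on cuprizone replicates 1 to 4. Ifng overlapped between the groups, since cuprizone replicates 2, 3 and 4 did not exceed the highest control, with replicate 3 below every control. Cuprizone minus control gave -0.02 ± 0.11 (adjusted p = 0.952 in limma). No detection call was used for these clusters, so whether their levels lie above background was not tested.

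Of 9 measured receptor and kinase genes 2 rose, namely Il10rb, a receptor chain shared with interleukin 10 and interferon lambda, by 0.41 ± 0.07, and the interferon gamma receptor chain Ifngr1 by 0.27 ± 0.06. The type I receptor chains Ifnar1 and Ifnar2 stood at log2 fold changes of 0.04 ± 0.06 and 0.11 ± 0.07 and were not called. Of 14 genes that drive interferon production 6 rose, among them the Toll-like receptor adaptor Myd88 (0.77 ± 0.11), the receptor chaperone Unc93b1 (0.57 ± 0.09), the RNA receptor Tlr7 (0.79 ± 0.15) and the endotoxin receptor Tlr4 (0.53 ± 0.11). Their arrays stood at 0.30, 0.25, 0.41 and 0.29, with replicate 2 at 74.1% of the others. The ordinary F test called 2 of these genes higher, and the count was 5 to 7 over the arrays left out. Mavs, another of the 6 at 0.27 ± 0.07, lost its call without control replicate 1, 3 or 4 or cuprizone replicate 2, 3 or 4. It also lost it in 4 other alternatives, with adjusted p from 0.0142 to 0.103 over the alternatives. Of 8 feedback genes 2 rose, the cytokine suppressor Socs3 by 0.26 ± 0.05 and the phosphatase Ptpn6 by 0.24 ± 0.05. Ifngr1 lost its call without control replicate 1 or 4 or cuprizone replicate 3 or 4, with adjusted p from 0.00771 to 0.0801 over the alternatives, and Ptpn6 lost it with replicate numbers as a block (0.00914 to 0.110). Both also lost it without both replicates 2.

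Genes that lean towards interferon gamma were mixed. Of 11 measured genes 6 rose, among them the transcription factor Irf8 (0.61 ± 0.10) and the GTPases Gbp5 (1.06 ± 0.19), Irgm1 (1.69 ± 0.31) and Gbp3 (1.49 ± 0.28), which type I interferons also induce. The ordinary F test called 1 of the 11. The count was 4 without cuprizone replicate 3, 7 without cuprizone replicate 2 and 5 without any 1 of the other arrays. Iigp1, at 1.16 ± 0.31, lost its call without any 1 array other than cuprizone replicate 2. Gbp7, at 1.11 ± 0.24, lost it without cuprizone replicate 3. Ciita, the switch for MHC class II genes, had a log2 fold change of 0.07 ± 0.07 and Ido1, a tryptophan-degrading enzyme, of -0.19 ± 0.09, and neither was called. Cxcl9 (0.37 ± 0.14), Irf1 (-0.07 ± 0.08) and Nos2 (-0.002 ± 0.059) were not called either. Cxcl9 passed without cuprizone replicate 2, with adjusted p from 0.0224 to 0.328 over the alternatives. These uncalled genes are named here after their values were seen. The list means on the cuprizone arrays were 1.00, 0.21, 0.91 and 0.54, and replicate 2 reached 25.3% of the others, close to the 25.5% of the interferon-stimulated genes.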

How the data were processed

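RNA from 8 corpus callosum samples (150 ng each) was hybridised to 1-colour Affymetrix Mouse Gene 1.0 ST arrays, per the labels' protocols. The deposited values are log2 levels per transcript cluster. The submitters' processing notes name Affymetrix Expression Console, RMA and Transcriptome Analysis Console without versions or roles, and the genome build is not given in the sources used here. RMA as published makes the arrays' distributions alike, which hides a shift shared by most genes. Neither raw scans nor calls of detection entered the work, batches were not tested, and the number of arrays limits the precision.

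Clusters were named through GEO's platform annotation (21789 of 28944 had 1 symbol, 1621 several). If a gene had several clusters, the one with the highest mean was used. Groups came from the sample labels. The 23410 named clusters were tested with limma 3.58.1 in R 4.3.3 (2 groups, moderated variance, two-sided, no filter), with Benjamini-Hochberg adjustment over all of them. Errors after ± are SE from limma. The steps were tested on simulated data. These had equal spread in both groups and independent clusters, so the unequal, shared spread of the listed genes was not covered. The members and the pathway and marker lists were chosen with earlier results of these data known. Values on every array are given, per role group, for the 2 members with the smallest p and for every member that missed the threshold. Called genes of other lists were named by smallest p, or because an alternative changed their call. Alternatives were the replicate number as a block, each array left out, an ordinary F test, median centring, a robust prior with an intensity trend, a second quantile normalization, 2 filters on dim clusters, all clusters, array weights and mean values per gene. A fit without both replicates 2 was added after seeing the data. Same-numbered arrays' deviations correlated at -0.19 to 0.21, so numbers were not taken as pairs.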

Additional observations from a re-analysis of the deposited data

How the results depend on the processing

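All 40 genes kept a positive log2 fold change in every alternative that held them, and none was called lower in any. The number called higher was 28 in the unpaired fit and 26 with the replicate number as a block, where Herc6, Mx1 and Bst2 lost and Ifih1 gained the call. Of 8 arrays 2 correlated best with their own number in the other group. The number was 15 with a trend and robust prior and 2 with an ordinary F test, which called 632 clusters higher in all, against 1102. Of the 17 genes above the median cluster 14 were called, 16 had the larger SD in the cuprizone group and 15 were lowest on cuprizone replicate 2; here fewer genes entered. With the arrays centred on their medians 30 were called. Leaving out each array in turn gave 19 to 39 called genes, a median log2 fold change of 0.78 to 1.22, and 795 to 1122 clusters called higher and 609 to 741 lower. The causes of these changes were not tested.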

Other observations

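The genes outside the list whose levels over the 8 arrays lay nearest the mean of the 40 were sought by the root mean square difference of control-centred log2 values. The nearest were Gbp7 at 0.10, Lgals9 at 0.10, Oas1b at 0.12, Ddx60 at 0.15, Iigp1 at 0.15, H2-Q4 at 0.16, Gbp5 at 0.17, Phf11d at 0.20, Fcgr4 at 0.21 and Hspb8 at 0.22 log2 units. Lgals9, which encodes galectin 9, stood 1.43, 0.35, 1.60 and 0.95 above its control mean on cuprizone replicates 1 to 4. H2-Q4, a class Ib MHC gene, stood at 1.69, 0.75, 1.67 and 1.09 on the same arrays, and Hspb8, a small heat shock protein gene, at 1.33, 0.82, 1.71 and 1.04. Within the list, Irf9 lay nearest its own mean, at 0.06, followed by Parp9 at 0.07. These distances describe 4 mice per group and were chosen by likeness, so no test is given.

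Dixon's criterion at the 95% level flagged no array in any of the 118 groups examined. These groups were made up of the 40 genes and the list means in both diets. With 4 arrays per group, the criterion flags only an array whose gap to the next fills most of the range. In 37 genes cuprizone replicate 4 lay between replicate 2 and the other cuprizone arrays, which shortens that gap. The criterion therefore cannot decide whether replicate 2 departs from its group.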
